A study of Homo sapiens with 6 samples.

Results

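The 43 genes described here belong to the interferon-stimulated genes, the transcripts that cells switch on after an interferon signal. They were chosen by gene name from the 58735 genes of a count table, and all 43 names were found. The list holds antiviral effectors, RNA sensors, the ISG15 modifier and its enzymes, APOL genes, *DTX3L* with PARP genes, 4 transcription factors and 1 chemokine. The choice used no measured value of these libraries, but it was made with earlier results of these data known.

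Polyadenylated RNA had been sequenced from OE33, an established human line of esophageal adenocarcinoma, in 2 groups of 3 independent biological replicates. Untreated cells were the control group. The other group received acidified bile salts (ABS), a mixture at 200 µM in medium of pH 4 without supplements, for 20 min, and then recovered in complete medium for 6 h. This exposure was meant as a model of an acute reflux injury. The cells of both groups came from this single line, grown in RPMI medium with serum and antibiotics. Acid alone, bile salts alone and a change of medium alone were not among the groups, so their parts in a difference cannot be told apart.

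Type I and type III interferons bind receptors at the cell surface and activate the kinases JAK1 and TYK2, which phosphorylate STAT proteins. STAT2 and IRF9 are subunits of ISGF3, a complex that binds the interferon-stimulated response element (ISRE) in the promoters of its target genes. Interferon gamma acts through a different element, GAS, and one of its targets is *IRF1*, whose protein can itself bind ISRE-like sequences. In epithelial cells the cytosolic RNA sensors RIG-I and MDA5 can start the pathway, and many interferon-stimulated genes are also expressed at a basal level without added interferon.

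The sequences that bear on this list are the ISRE letters in the promoters. A window of 250 bases before to 50 bases after each RefSeq start site (GRCh38.p14) was searched for GAAA, any 2 bases and GAAA again, and for the reverse complement of this pattern, which has TTTC on either side. Windows were found for 31 of the 43 genes, 40 windows in all, because 8 genes had more than 1 start. Those without a window were *IFIT2*, *OAS2*, *OASL*, *MX2*, *GBP2*, *DHX58*, *USP18*, *APOL1*, *APOL2*, *APOL6*, *PARP10* and *IRF7*. The ISRE letters stood in 22 of the 31 genes (71.0%) and in 65.0% of their windows, against 3.57% of all 35116 RefSeq windows. The narrower form, GAAAC, any 1 base and GAAA on either strand, is a subset of the first. It stood in 16 of the 31 genes and in 45% of their windows, against 0.763% of all windows. A match is a description of letters, not evidence of a bound site.

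The windows of the 3 genes with an ISRE and the smallest unadjusted p in the comparison below are shown 5′ to 3′ on the gene's strand, with the ISRE letters in capitals. The *DTX3L* window lies at chr3:122564088-122564387 (plus strand) and the *IFIT5* window at chr10:89414318-89414617 (plus strand). That of *TRIM21* lies at chr11:4393653-4393952 (minus strand).
DTX3L: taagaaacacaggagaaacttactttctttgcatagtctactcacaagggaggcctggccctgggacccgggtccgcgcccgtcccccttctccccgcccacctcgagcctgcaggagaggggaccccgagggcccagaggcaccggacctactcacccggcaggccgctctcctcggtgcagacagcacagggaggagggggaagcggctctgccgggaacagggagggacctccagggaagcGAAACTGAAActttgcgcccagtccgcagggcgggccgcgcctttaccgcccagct
IFIT5: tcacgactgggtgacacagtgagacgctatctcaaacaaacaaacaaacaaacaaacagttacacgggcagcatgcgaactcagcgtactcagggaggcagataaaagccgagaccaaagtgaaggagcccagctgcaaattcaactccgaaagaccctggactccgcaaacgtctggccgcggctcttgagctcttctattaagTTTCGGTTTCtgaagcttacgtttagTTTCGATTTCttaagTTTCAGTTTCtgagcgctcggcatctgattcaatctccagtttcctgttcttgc
TRIM21: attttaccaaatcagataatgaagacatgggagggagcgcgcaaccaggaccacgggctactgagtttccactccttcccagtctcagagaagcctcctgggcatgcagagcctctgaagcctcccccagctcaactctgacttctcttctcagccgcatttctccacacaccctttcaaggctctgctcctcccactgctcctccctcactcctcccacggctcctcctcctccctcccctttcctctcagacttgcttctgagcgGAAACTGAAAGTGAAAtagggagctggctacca
*IFIT5* held 3 separate matches, of which 2 had the narrower form. *TRIM21* held 2 overlapping matches just after its start. *DTX3L* held 1, which began 6 bases before its start.

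That one match also lay in the window of *PARP9*, which is read in the opposite direction from a start 38 bases away on the same chromosome. The site is at chr3:122564322-122564351 and is shown on each gene's strand.
DTX3L: ccagggaagcGAAACTGAAActttgcgccc
PARP9: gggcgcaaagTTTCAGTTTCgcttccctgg
Among the other genes with the narrower form, some were higher in every ABS library than in every control library and others were not. Of the first kind, *IFIT1* (chr10:89392510-89392539), the second start of *IFIT3* (chr10:89332425-89332454), *IFIH1* (chr2:162318686-162318715), *DDX60* (chr4:168318821-168318850) and *ISG15* (chr1:1013380-1013409) read as follows.
IFIT1: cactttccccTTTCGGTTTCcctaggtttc
IFIT3: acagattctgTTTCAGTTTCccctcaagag
IFIH1: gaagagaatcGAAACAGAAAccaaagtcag
DDX60: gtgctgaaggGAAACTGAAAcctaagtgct
ISG15: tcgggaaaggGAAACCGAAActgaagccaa
Of the second kind, *MX1* (chr21:41420559-41420588), *IFI44* (chr1:78649761-78649790) and *ISG20* (chr15:88638937-88638966) carried the same letters.
MX1: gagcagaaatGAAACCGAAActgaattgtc
IFI44: gcacactgagTTTCAGTTTCctttctctga
ISG20: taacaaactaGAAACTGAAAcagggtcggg
The core GAAACTGAAA, read on either strand, occurred in 10 genes, and it was common to *DDX60*, *IFIT3*, *IFIT5*, *TRIM21*, *IFI44* and *ISG20*.

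The 6 libraries held between 22145676 and 25235686 counts, and 0.102% to 0.110% of the control counts and 0.124% to 0.131% of the ABS counts fell on the 43 genes. A count of 0 in a library allows a level of up to 0.118 to 0.137 CPM, with counting error only, where CPM is the count per 1e6 counts of the scaled library total. On the first principal component (28.4% of the variance) the ABS libraries stood between 2.60 and 28.9 and the controls between -21.6 and -8.19, with replicate 3 nearest to the middle in each group. On the second (25.9%) the replicate 3 libraries were at 18.98 (control) and 28.99 (ABS), whereas none of the remaining 4 exceeded -2.73. Both replicate 3 libraries therefore stood apart, and values with and without them are given below. The summed 8 markers of columnar epithelium were at 21582 to 24344 CPM in control and 22209 to 23000 CPM in ABS libraries. *KRT19* was the largest part, with means of 11362 CPM in control and 10748 CPM in ABS libraries. *VIL1*, also on that list, had raw counts of 0, 2 and 4 in control and 6, 9 and 2 in ABS libraries and was not tested. Of 10 immune markers 6 had no count, *PTPRC* and *CLEC4C* among them, and their summed level, mostly *CD14*, was 5.54 to 7.51 CPM in control and 6.38 to 7.57 CPM in ABS libraries. *ITGAM*, an integrin of myeloid cells, was at 0.468, 0.273 and 0.165 CPM in control and at 0.766, 0.787 and 1.22 CPM in ABS libraries (log2 fold change 1.60 ± 0.53, SE, edgeR adjusted p = 0.279), and its part in the results was not tested. In RNA from a whole culture, a change in every cell and a larger change in some of the cells cannot be told apart.

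ABS was compared with control by edgeR's quasi-likelihood test on the counts of 13768 genes, with Benjamini-Hochberg adjustment over all of them and a threshold of 0.05. Of the 43 genes 38 had enough counts to be tested, and 4 of these 38 (10.5%) passed with a higher level in ABS: *DTX3L*, *APOL6*, *IRF1* and *IFIT5*. Over all tested genes 0.37% passed in that direction. None of the 38 passed in the other direction, where 0.0654% of all tested genes did. That count was also 0 at an unadjusted p under 0.05, beside 4.14% of all tested genes, and 0 with DESeq2 and with limma-voom. Over all genes DESeq2 called 226 of 13272 in either direction, 162 of them higher. The limma-voom fit called 62 of 13768, 52 of them higher. An unadjusted p under 0.05 with a higher level was found for 15 of the 38, against 5.61% of all tested genes. DESeq2 called 8 of 37 genes of the list higher, beside 1.22% of all genes it tested, and limma-voom called the same 4 of 38, beside 0.378%.

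The changes were small in size. The log2 fold change of the 38 tested genes ran from -0.33 to 1.22 with a median of 0.17, and 32 were positive, whereas the median over all tested genes was -0.00. In 18 of the 38 (47.4%) each of the 3 ABS values lay above each of the 3 control values, against 7.57% of all tested genes, and in 0 of them below, against 6.95%. A low-expressed gene can enter the test through the group where it is high. Among the 25 tested genes with a mean of at least 10 CPM over the 6 libraries, 22 were positive and 14 had groups that did not overlap, and *DDX60* reached that mean only through its ABS values. With the control mean in its place the numbers were 24, 21 and 13. Among the 13 genes with a mean under 10 CPM over the 6 libraries, 10 were positive and 4 did not overlap. Shares of all tested genes in these ranges of CPM are not given here. The 7.57% covers genes of every level and is no measure for these counts.

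Each library was also described by the median deviation of the 38 genes from their control mean on the log2 scale. It was -0.03, -0.03 and 0.05 in control replicates 1, 2 and 3, and 0.19, 0.21 and 0.30 in ABS replicates 1, 2 and 3. All 3 ABS libraries were thus above all 3 controls, with both replicate 3 libraries the highest of their group. The same median over all tested genes lay between -0.00 and 0.01 in every library.

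**Figure D1:**
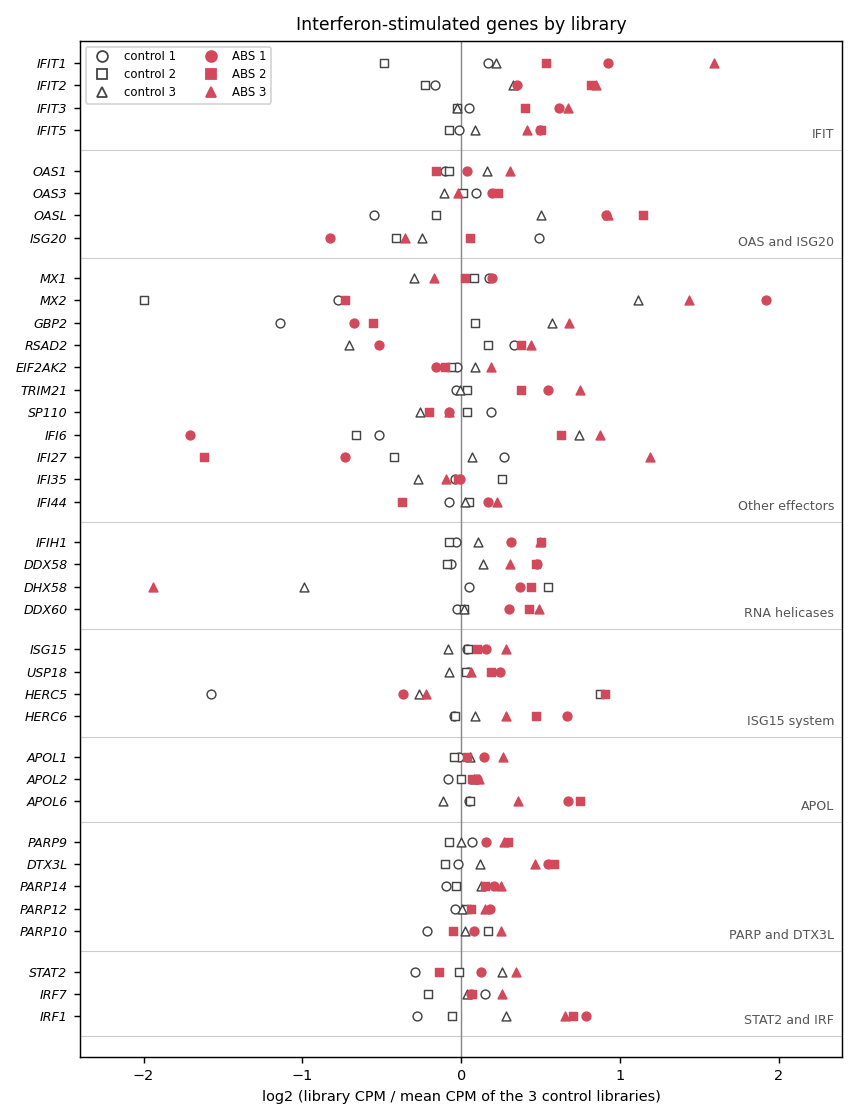
Deviation of each tested interferon-stimulated gene from the mean of the 3 control libraries (x axis, log2 of CPM over that mean), with 1 row per gene grouped by role. Open marks are control and filled marks ABS libraries, with a shape for each replicate number; the ABS marks of all 4 IFIT genes lie to the right of their control marks, while those of *MX1*, *EIF2AK2* and *IFI35* are mixed with them.

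**Figure D2:**
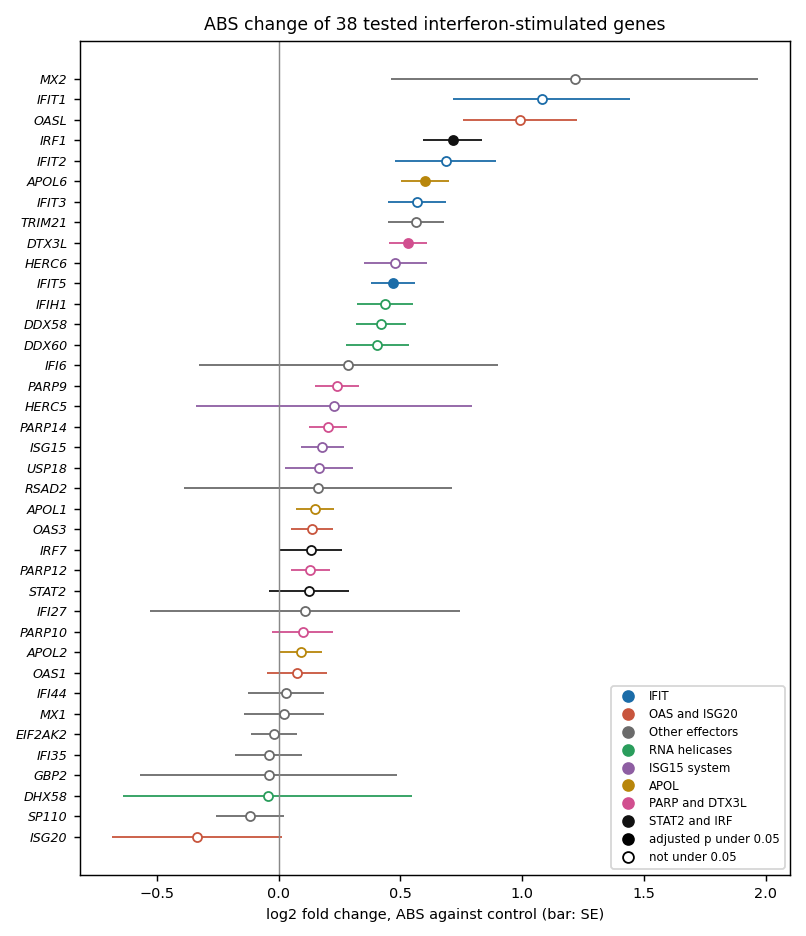
Log2 fold change of ABS against control (x axis) for the 38 tested genes in order, with the standard error as a bar and the role group as a colour. The 4 filled marks, *IRF1*, *APOL6*, *DTX3L* and *IFIT5*, passed the adjusted threshold, and *MX2*, with the largest estimate, has one of the widest bars.

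Of the RNA sensors, 3 of the 4 were higher in every ABS library than in every control, which held for 7.57% of all tested genes, and none of the 4 passed the adjusted threshold. *DDX58* (ENSG00000107201, chr9:32455705-32526324) encodes RIG-I, which detects RNA with a free triphosphate end. It was at 22.4, 22.03 and 25.8 CPM in control replicates 1 to 3 and at 32.6, 32.5 and 29.003 CPM in the ABS replicates. ABS replicate 3 was the lowest of its group and control replicate 3 the highest of its own, without overlap. The log2 fold change was 0.42 ± 0.10 (SE, n = 3 and 3, edgeR adjusted p = 0.111).

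*IFIH1* (ENSG00000115267, chr2:162267079-162318703) encodes MDA5, the sensor of long double-stranded RNA. It was at 13.9, 13.5 and 15.3 CPM in control and 17.7, 20.1 and 20.1 CPM in ABS libraries. The groups did not overlap, and the log2 fold change was 0.44 ± 0.12 (SE, edgeR adjusted p = 0.138). *DDX60* (ENSG00000137628, chr4:168216293-168318807), a helicase linked to RIG-I signaling, was nearly constant in the controls at 9.22, 9.51 and 9.51 CPM, and reached 11.6, 12.6 and 13.2 CPM in the ABS libraries. Its log2 fold change was 0.41 ± 0.13 (SE, edgeR adjusted p = 0.245). *DHX58* encodes LGP2, which lacks the signaling domain of RIG-I and MDA5. It was at 0.903 ± 0.433 CPM in control and 0.876 ± 0.556 CPM in ABS libraries (SD, n = 3), with overlapping groups.

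The IFIT genes encode proteins with tetratricopeptide repeats, several of which bind foreign RNA and hold back its translation. All 4 lie in the same direction on chromosome 10, with 18617 bases between *IFIT2* and *IFIT3*, 51574 between *IFIT3* and *IFIT1* and 8099 between *IFIT1* and *IFIT5*. In all 4 the ABS libraries were above the controls, beside 7.57% of all tested genes, and 1 of the 4, *IFIT5*, passed the adjusted threshold, beside 0.37%. Their median log2 fold change was 0.63.

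*IFIT5* (ENSG00000152778, chr10:89414586-89421001) was at 29.1, 27.8 and 31.2 CPM in control and at 41.4, 41.6 and 39.2 CPM in ABS libraries. Both groups were tight, at 29.4 ± 1.71 and 40.7 ± 1.34 CPM (SD, n = 3), and far apart by comparison. It rose 1.39-fold, a log2 fold change of 0.47 ± 0.09 (SE, edgeR adjusted p = 0.0479). Its promoter window is the one with 3 ISRE matches shown above.

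*IFIT3* (ENSG00000119917, chr10:89327894-89340971), which stabilizes IFIT1 in a complex, was at 12.8, 12.1 and 12.1 CPM in control and 18.9, 16.3 and 19.6 CPM in ABS libraries. The log2 fold change was 0.57 ± 0.12 (SE, edgeR adjusted p = 0.0668), larger than that of *IFIT5* but estimated from fewer counts. *IFIT2* (ENSG00000119922, chr10:89283694-89309276), also linked to cell death, was at 4.38, 4.19 and 6.16 CPM in control and 6.25, 8.66 and 8.83 CPM in ABS libraries. The highest control lay just below the lowest ABS library, and the adjusted p was 0.219 for a log2 fold change of 0.69 ± 0.21 (SE, edgeR).

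*IFIT1* (ENSG00000185745, chr10:89392546-89406486), which recognizes RNA caps that lack 2′-O methylation, had the lowest counts of the 4. It was at 1.36, 0.865 and 1.41 CPM in control and at 2.30, 1.75 and 3.65 CPM in ABS libraries. The groups did not overlap, and the log2 fold change of 1.08 ± 0.36 (SE) had an edgeR adjusted p of 0.29. *LIPA*, read from the opposite strand across *IFIT1*, *IFIT2* and *IFIT3*, had a log2 fold change of 0.14 ± 0.14 (SE, edgeR adjusted p = 0.806). No exon base of *IFIT1* or *IFIT3* was shared with another gene model, and 10.3% of those of *IFIT2* were.

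Among the OAS genes, *OASL* stood apart from the others. OAS proteins make 2′-5′ oligoadenylates when they meet double-stranded RNA, whereas OASL lacks that activity and enhances RIG-I signaling. *OASL* (ENSG00000135114, chr12:121019111-121039242) was at 3.23, 4.23 and 6.70 CPM in control and at 8.87, 10.4 and 8.95 CPM in ABS libraries. Control replicate 3 was the highest control, but all 3 ABS libraries were above it. The log2 fold change was 0.99 ± 0.23 (SE, edgeR adjusted p = 0.103).

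The 3 true OAS genes lie side by side on chromosome 12, 5129 and 5145 bases apart. *OAS3* (ENSG00000111331, chr12:112938352-112973249) was at 115, 108 and 99.7 CPM in control and 123, 126 and 106 CPM in ABS libraries, with overlapping groups and a log2 fold change of 0.14 ± 0.09 (SE, edgeR adjusted p = 0.669). *OAS1* was at 35.8 ± 3.72 CPM in control and 37.7 ± 6.23 CPM in ABS libraries (SD, n = 3). *OAS2* was not tested, with raw counts of 10, 7 and 5 in control and 18, 7 and 8 in ABS libraries. *ISG20*, an exonuclease of single-stranded RNA, had the most negative log2 fold change of the list, -0.33 ± 0.35 (SE, edgeR adjusted p = 0.828), from 2.36 ± 0.835 to 1.87 ± 0.559 CPM (SD, n = 3).

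Of 13 other effectors 11 were tested. *TRIM21* alone had an unadjusted p under 0.05 and groups that did not overlap, 9.09% of the 11 by either measure. Over all tested genes 5.61% had such a p with a higher level, and in 7.57% every ABS library was above every control. *TRIM21* (ENSG00000132109, chr11:4384897-4393696) encodes a ubiquitin ligase that binds antibody in the cytosol. It was at 17.6, 18.5 and 17.9 CPM in control and at 26.3, 23.4 and 30.2 CPM in ABS libraries. The controls differed very little from each other, and ABS replicate 3 was the highest library. The log2 fold change was 0.57 ± 0.11 (SE, edgeR adjusted p = 0.0577).

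*EIF2AK2* (ENSG00000055332, chr2:37099210-37157065) encodes PKR, the kinase that halts translation in response to double-stranded RNA, and had the highest CPM of these effectors before any correction for length. It was at 82.2, 80.1 and 89.0 CPM in control and at 74.9, 77.9 and 95.3 CPM in ABS libraries. ABS replicates 1 and 2 were below every control and ABS replicate 3 above every control. The log2 fold change was -0.02 ± 0.10 (SE, edgeR adjusted p = 0.975), which gives no difference beyond the spread between replicates.

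The classical antiviral effector *MX1*, a dynamin-like GTPase, was at 9.77 ± 1.63 CPM in control and 9.92 ± 1.25 CPM in ABS libraries (SD, n = 3), with a log2 fold change of 0.02 ± 0.16 (SE, edgeR adjusted p = 0.983). Its neighbour *MX2*, 10913 bases away, had the largest estimate of the list, 1.22 ± 0.75 (SE, edgeR adjusted p = 0.663). That value rested on 0.213, 0.091 and 0.786 CPM in control and 1.37, 0.219 and 0.981 CPM in ABS libraries, which overlapped. *SP110*, a nuclear body protein, *IFI35* and *IFI44* had log2 fold changes of -0.12, -0.04 and 0.03. *IFI6*, *IFI27*, *RSAD2* and *GBP2* had control means between 0.404 and 1.03 CPM and standard errors of the log2 fold change between 0.53 and 0.64, so that only large changes could have been seen there. *RSAD2* encodes viperin, which makes a chain-terminating nucleotide, and GBP2 is a GTPase induced by interferon gamma.

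*IFI44* and *IFI44L* are adjacent on chromosome 1, 3650 bases apart. *IFI44* was at 13.7 ± 0.634 CPM in control libraries (SD, n = 3), but *IFI44L* had raw counts of 3, 3 and 11 in control and 1, 7 and 8 in ABS libraries and was not tested. *XAF1*, a factor linked to apoptosis, had 6 counts in control replicate 3 and 0 in each of the other libraries.

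The ISG15 group holds the ubiquitin-like modifier itself, the ligases HERC5 and HERC6 and the protease USP18, which removes ISG15 and restrains the type I interferon receptor. The ABS libraries were above the controls for 3 of the 4, beside 7.57% of all tested genes, and none passed the adjusted threshold. *ISG15* (ENSG00000187608, chr1:1001138-1014540) was at 42.8, 42.9 and 39.4 CPM in control and at 46.4, 44.7 and 50.6 CPM in ABS libraries. The groups did not overlap but lay close together, with a log2 fold change of 0.18 ± 0.09 (SE, edgeR adjusted p = 0.549).

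*HERC6* (ENSG00000138642, chr4:88378739-88443111) was at 11.6, 11.7 and 12.8 CPM in control and at 19.1, 16.7 and 14.6 CPM in ABS libraries. ABS replicate 3 was nearest to the controls, and the log2 fold change was 0.48 ± 0.13 (SE, edgeR adjusted p = 0.156). *HERC5*, the main ISG15 ligase in human cells and 14005 bases from *HERC6*, was at 1.14 ± 0.871 CPM in control and 1.34 ± 0.699 CPM in ABS libraries (SD, n = 3), with overlap. *USP18* was at 8.25 ± 0.373 CPM in control and 9.25 ± 0.597 CPM in ABS libraries (SD, n = 3), a log2 fold change of 0.17 ± 0.14 (SE, edgeR adjusted p = 0.774).

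In the APOL group, *APOL6* alone passed the threshold, 1 of 3 genes, beside 0.37% of all tested genes. APOL genes encode apolipoprotein L proteins, of which APOL1 is secreted and kills trypanosomes and APOL6 stays inside cells. *APOL6* (ENSG00000221963, chr22:35648395-35668409) was at 97.8, 97.9 and 87.3 CPM in control and at 150.5, 158 and 121 CPM in ABS libraries. ABS replicate 3 was the lowest of its group and control replicate 3 the lowest of its own. It rose 1.52-fold, a log2 fold change of 0.60 ± 0.10 (SE, edgeR adjusted p = 0.0243).

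*APOL1* (ENSG00000100342, chr22:36253010-36267530) was at 103, 101 and 109 CPM in control and at 115, 107 and 125 CPM in ABS libraries. ABS replicate 2 fell inside the control range, and the log2 fold change was 0.15 ± 0.08 (SE, edgeR adjusted p = 0.573). *APOL2*, 13055 bases from *APOL1* and read in the opposite direction, was at 39.4 ± 2.23 CPM in control and 42.1 ± 0.713 CPM in ABS libraries (SD, n = 3). *APOL6* lies 557793 bases from *APOL2*.

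In the PARP group *DTX3L* passed the threshold, and all 5 genes had positive log2 fold changes with a median of 0.20. DTX3L is a ubiquitin ligase that works in a complex with PARP9, and PARP10, PARP12 and PARP14 attach single ADP-ribose units to proteins. *DTX3L* (ENSG00000163840, chr3:122564238-122575203) was at 87.5, 82.6 and 96.3 CPM in control and at 129.6, 133 and 123 CPM in ABS libraries. The lowest ABS library was well above the highest control, and the means were 88.8 ± 6.94 and 128 ± 5.19 CPM (SD, n = 3). It rose 1.45-fold, a log2 fold change of 0.53 ± 0.08 (SE, edgeR adjusted p = 0.0123), the smallest adjusted p of the list.

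*PARP9* (ENSG00000138496, chr3:122527924-122564577), which shares the ISRE letters shown above, was at 34.9, 31.6 and 33.3 CPM in control and at 37.0, 40.7 and 40.2 CPM in ABS libraries. The groups did not overlap. Its log2 fold change was 0.24 ± 0.09 (SE, edgeR adjusted p = 0.361), and the difference from that of *DTX3L* was not tested. The gene models share 217 exon bases on opposite strands, which are 3.70% of those of *DTX3L*.

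*PARP14*, on the same chromosome as *DTX3L* at a distance of 105414 bases, was at 76.3 ± 6.05 CPM in control and 87.9 ± 3.02 CPM in ABS libraries (SD, n = 3), without overlap, and had a log2 fold change of 0.20 ± 0.08 (SE, edgeR adjusted p = 0.4). *PARP12*, on chromosome 7, was at 45.7 ± 1.14 and 49.98 ± 2.16 CPM (SD, n = 3), without overlap, with a log2 fold change of 0.13 ± 0.08 (SE, edgeR adjusted p = 0.663). *PARP10* overlapped between groups, with a log2 fold change of 0.10 ± 0.12 (SE, edgeR adjusted p = 0.865).

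Of the 3 tested transcription factors, *IRF1* passed the threshold, beside 0.37% of all tested genes, and *STAT2* and *IRF7* did not. *IRF1* (ENSG00000125347, chr5:132481609-132490798) was at 35.3, 41.2 and 52.0 CPM in control and at 73.9, 69.8 and 67.4 CPM in ABS libraries. The controls were spread widely, with replicate 3 the highest, and the ABS libraries lay close together above them. The means were 42.8 ± 8.49 and 70.4 ± 3.27 CPM (SD, n = 3). *IRF1* rose 1.64-fold, a log2 fold change of 0.71 ± 0.12 (SE, edgeR adjusted p = 0.028). Of its exon bases 22% are shared with gene models on the opposite strand, of which *C5orf56* had 215 counts over the 6 libraries.

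*STAT2* was at 14.04 ± 2.64 CPM in control and 15.3 ± 2.57 CPM in ABS libraries (SD, n = 3), with a log2 fold change of 0.13 ± 0.16 (SE, edgeR adjusted p = 0.875). *IRF7*, the factor that amplifies interferon alpha production, had a log2 fold change of 0.13 ± 0.13 (SE, edgeR adjusted p = 0.819). *IRF9* was not tested, with raw counts of 0, 0 and 2 in control and 0, 0 and 30 in ABS libraries. Only ABS replicate 3 held more than 2 counts. Another gene model on the same strand, *AL136295.5*, overlaps 48.4% of the *IRF9* exon bases, so the counts under *IRF9* are an uncertain measure of its level. *CXCL10*, the chemokine of the list, had 9 counts in control replicate 1 and 0 in each of the other 5 libraries.

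Levels of different genes were compared per kilobase of gene length, over the control libraries. *ISG15* was highest at 44.3 ± 2.12 CPM per kb, followed by *APOL1* at 29.7 ± 1.08, *DTX3L* at 15.1 ± 1.18 and *OAS3* at 13.04 ± 0.911 CPM per kb (SD, n = 3). The gap between *DTX3L* and *OAS3* was no larger than the sum of their SDs, whereas *ISG15* and *APOL1* were well separated. *IRF1* stood at 5.49 ± 1.09 CPM per kb, *IFIT1* at 0.262 and *MX2*, the lowest tested gene, at 0.0278 CPM per kb. By CPM in control, 5 of the 38 tested genes were under 1, 9 from 1 to 10, 18 from 10 to 50 and 6 above 50.

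**Figure D3:**
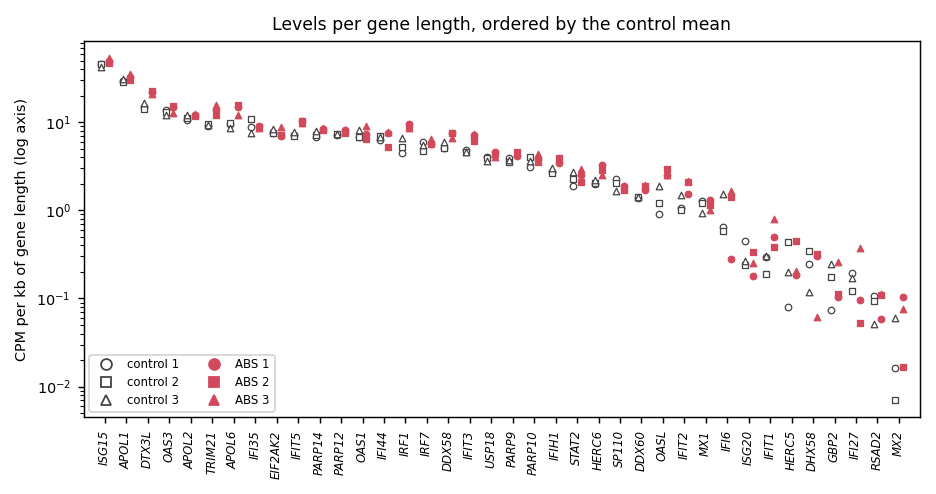
Level of the 38 tested genes in each library (y axis, CPM per kb of gene length, log scale), ordered by the control mean. Open marks are control and filled marks ABS libraries; *ISG15* is highest and *MX2* lowest, and library-to-library scatter widens toward the low end.

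The 4 calls were then examined with libraries left out. Each of *DTX3L*, *APOL6*, *IRF1* and *IFIT5* passed in edgeR without control replicate 3 and without ABS replicate 3, and failed without any 1 of the other 4 libraries. In those 4 fits the adjusted p was 0.0996 to 0.144 for *DTX3L*, 0.113 to 0.214 for *APOL6*, 0.113 to 0.222 for *IRF1* and 0.231 to 0.295 for *IFIT5*. Their log2 fold changes stayed between 0.43 and 0.88 over all 6 fits. Without control replicate 3, 9 of 39 tested genes of the list passed, beside 2.27% of all tested genes, and without ABS replicate 3 it was 6 of 38, beside 1.33%. Without control replicates 1 or 2 and without ABS replicates 1 or 2 it was 0 each time, beside 0.106%, 0.0774%, 0.0848% and 0.113%. In those 4 fits 13 to 16 genes of the list were higher at an unadjusted edgeR p under 0.05. The percentages just given are for adjusted p, and the unadjusted shares of all tested genes in those fits are not given here. With all 6 libraries that share was 5.61%.

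With a term for replicate 3 in the model, 11 of 38 were called higher, beside 2.24% of all tested genes. With replicates 1 and 2 alone, 12 of 37 tested genes of the list were called higher, and 7.83% of all tested genes were. Those 12 were the 4 above with *IFIT2*, *IFIT3*, *OASL*, *TRIM21*, *IFIH1*, *DDX58*, *HERC6* and *PARP14*. Within replicates 1 and 2 the median log2 fold change was 0.17, with 29 of 38 positive. Within the replicate 3 pair the median log2 difference was 0.20, with 36 of 38 positive, so both subsets gave a higher median. Of all 13768 tested genes, 6670 were positive for replicates 1 and 2, with a median of -0.01. For replicate 3 it was 6852, with a median of -0.00. The change was larger within replicates 1 and 2 for 18 of the 38 (47.4%). This was near the 49.7% of all tested genes, so that count did not set the list apart.

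**Figure D4:**
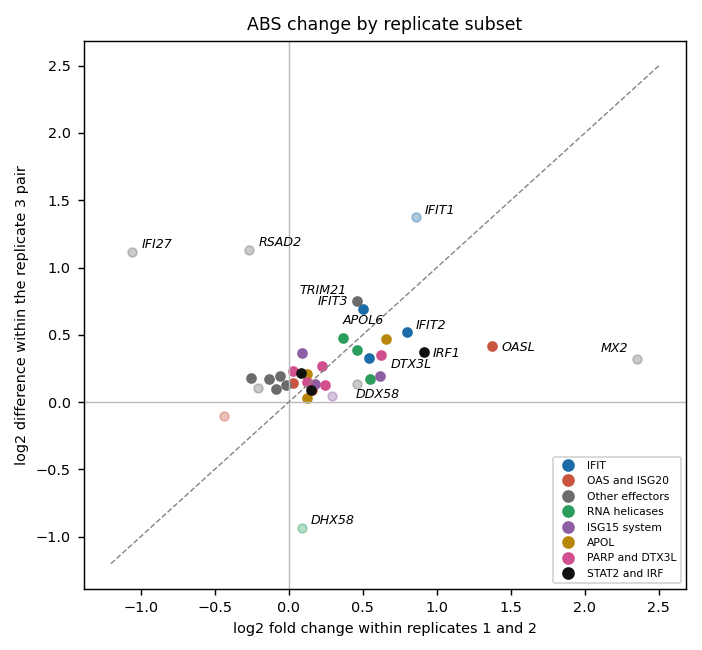
Log2 change under ABS within replicates 1 and 2 (x axis) against the log2 difference within the replicate 3 pair (y axis) for the 38 tested genes, coloured by role, with pale marks for genes with a mean under 5 CPM and a dashed line of equality. Most points lie in the upper right quadrant, with *IRF1* and *OASL* below the line and *TRIM21* and *IFIT3* above it.

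A test of the interaction between ABS and replicate 3 was chosen after replicate 3 was seen to stand apart. The replicate 3 side held 1 library per group, so the 2 residual degrees of freedom came from replicates 1 and 2 and the spread of replicate 3 was assumed to be like theirs. It passed for 1 of the 38 genes, *IRF1*, against 2.38% of all tested genes. On the log2 scale the *IRF1* change was 0.91 in replicates 1 and 2 and 0.37 in the pair of replicate 3, a difference of -0.54 (edgeR adjusted p = 0.0399). An unadjusted p under 0.05 was found for 4 of the 38, beside 13.8% of all tested genes. The other three were *OASL*, with 1.37 and 0.42 in the same order, *DTX3L*, with 0.63 and 0.35, and *DDX58*, with 0.55 and 0.17. Control replicate 3 was above both other controls for 19 of the 38 genes (50%), whereas this held for 38.7% of all tested genes.

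Promoter letters were set beside the expression of the genes that had both. The ISRE letters stood in 11 of 14 genes whose groups did not overlap and in 9 of 13 whose groups overlapped. For the narrower form the counts were 10 of 14 and 6 of 13. The GAS letters TTCNNNGAA, which read the same on both strands, stood in 9 of the 31 genes and 25% of their windows, against 7.66% of all windows, and they overlapped an ISRE match in *IFI27* and *MX1*. A consensus for NF-kB stood in 6 of the 31 genes and 15% of their windows, against 5.91% of all windows. The *IRF1* window held 1 GAS and 1 NF-kB match and no ISRE letters. That of *DDX58* held 1 NF-kB match and no ISRE letters. The window of *OAS3*, whose groups overlapped, held 2 NF-kB matches. The GAS letters stood in 3 of the 14 genes whose groups did not overlap and in 5 of the 13 whose groups overlapped. For the NF-kB consensus the counts were 3 of 14 and 1 of 13.

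**Figure D5:**
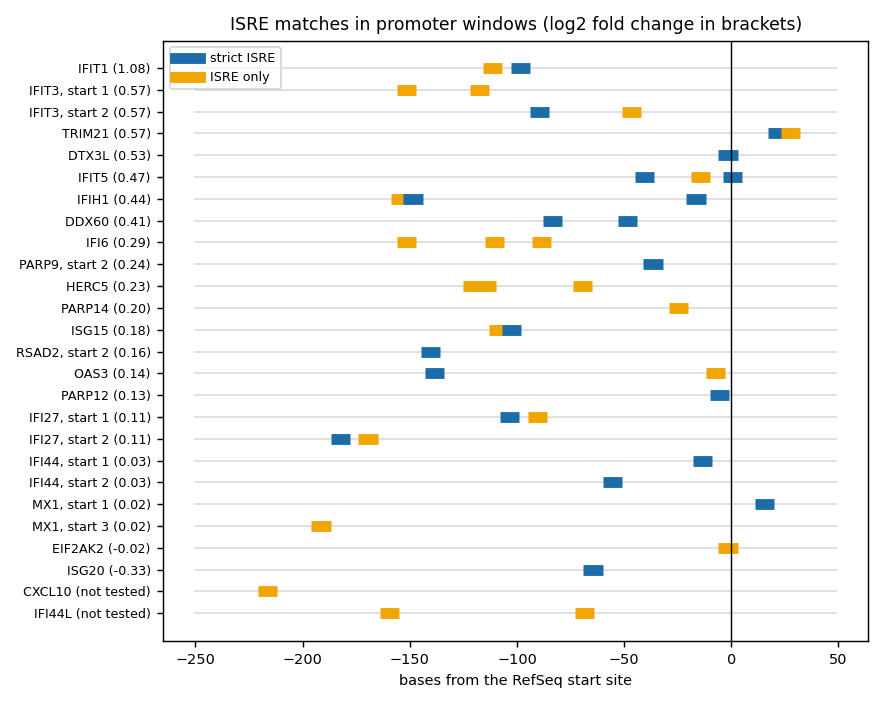
Positions of ISRE matches (x axis, bases from the RefSeq start site) in each promoter window that holds one, in order of the log2 fold change given in brackets. Narrower matches are in a second colour; they occur both in genes near the top, such as *IFIT1* and *TRIM21*, and in *MX1* and *ISG20* near the bottom.

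The wider pathway was described from 6 further lists, of which 106 of 142 genes were tested. Of the 22 interferon ligand genes 19, *IFNB1* and all IFNA genes among them, had no count in any library. *IFNL1*, a type III interferon, had 8 counts in ABS replicate 1 and 0 elsewhere. *IFNL3* had 2 counts in control replicate 3 and 0 elsewhere, and *IFNE*, an epithelial type I interferon, had 3, 2 and 4 counts in control and 2, 0 and 0 in ABS libraries. None of these levels could be compared at this depth.

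All 10 genes of the list of receptors and their signaling partners were tested and 0 passed by edgeR, DESeq2 or limma-voom, with 1 at an unadjusted p under 0.05 in edgeR. *IFNGR1* and *JAK1* had log2 fold changes of 0.21 and 0.14 and *TYK2* one of -0.10. In the 14 tested genes of nucleic acid sensing 0 passed in edgeR, with 1 at an unadjusted p under 0.05. *TRIM25*, which ubiquitinates RIG-I, and *CGAS*, the DNA sensor, had log2 fold changes of 0.18 and 0.20, and *MAVS*, the adaptor of the RNA sensors, and *IRF5* of -0.13 and -0.26.

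Of 14 negative regulators 1 passed, beside 0.37% of all tested genes. This was *SOCS1*, which blocks JAK kinases. It was at 1.28, 1.09 and 1.49 CPM in control and at 3.31, 4.77 and 3.38 CPM in ABS libraries. Every ABS library was above every control, with a log2 fold change of 1.56 ± 0.29 (SE, edgeR adjusted p = 0.0394). This call was lost without control replicate 1 or 2 and without ABS replicate 1 or 2 (edgeR adjusted p = 0.159 to 0.244), with library size alone (0.0675) and with limma-voom (0.0576). *TNFAIP3*, the NF-kB inhibitor A20, had a log2 fold change of 0.60 ± 0.24 (SE, edgeR adjusted p = 0.4), with control replicate 3 at 189 CPM beside 88.2 and 83.4 CPM in the other controls. *CYLD*, *NLRX1* and *IRF2BP2* had log2 fold changes of 0.19, -0.09 and -0.19.

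Of 49 tested further interferon-stimulated genes 0 passed in edgeR, while 10 were higher and 2 lower at an unadjusted p under 0.05, beside 5.61% and 4.14% of all tested genes. Their groups did not overlap for 12 genes above and 1 below, beside 7.57% and 6.95%, and the median log2 fold change was 0.10. *SAMD9*, an antiviral factor, had a log2 fold change of 0.45 ± 0.09 (SE, edgeR adjusted p = 0.0596). *UBE2L6*, the E2 enzyme of ISG15, and *SLFN13* had values of -0.18 and -0.29. With DESeq2, *SAMD9* and *ZNFX1* of this list passed. Among 19 tested genes of the interferon gamma response and antigen presentation 0 passed in edgeR, with 1 at an unadjusted p under 0.05, and the median log2 fold change was -0.01. *CD274*, which encodes PD-L1, had a log2 fold change of 0.39 ± 0.14 (SE, edgeR adjusted p = 0.316), *CD74* one of 0.15 and *PSMB10* one of -0.11.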

How the data were processed

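The authors deposited 1 table of unnormalized whole-number counts for 6 libraries of polyadenylated RNA, with gene lengths from the authors. Per the submitters' processing notes, HISAT2 2.0.5 and featureCounts 1.5.0-p3 were used with GRCh38. How multiply mapped reads were counted, whether strand was used, and which annotation release were not given in the sources used here. Reads from overlapping genes may therefore be counted under either gene or under neither. All 43 coordinates were identical to GENCODE 29, which was used for exon overlaps. Positions of genes are on GRCh38.

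Here the counts were filtered with filterByExpr (minimum count 10), scaled by TMM and tested with edgeR 4.0.16 (R 4.3.3) quasi-likelihood F-tests, ABS against control in a model of group alone, with Benjamini-Hochberg adjustment over 13768 genes. CPM values are TMM-scaled. On simulated counts for these genes, 45.3% of 1.5-fold, 79.4% of 2-fold and 88.3% of 4-fold changes were recovered. Alternatives were RLE scaling, library size alone, no filter, robust fitting, DESeq2 1.42.0, limma-voom (limma 3.58.1), each library left out, a replicate block, a term for replicate 3, and replicates 1 and 2 alone. Promoter windows came from RefSeq (GRCh38.p14), matched by symbol only, with *DDX58* under its RefSeq symbol *RIGI*.

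The members and lists were chosen with earlier results of these data known, and no test was run on a list as a whole. Full values are given for the 12 tested genes with the smallest unadjusted p and for the gene of highest CPM in each role group. From each wider list were named genes past the threshold, ligands with any count, and up to 2 genes with the largest positive and negative log2 fold changes at 5 CPM or more, and some genes that this rule names are not reported here. *ZNFX1*, *N4BP1* and the overlapping genes were named after their values were seen.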

Additional observations from a re-analysis of the deposited data

Results flagged for a closer look

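For 4 genes the ABS change within replicates 1 and 2 differed from that within the replicate 3 pair, by an edgeR test of the interaction adjusted over all 13768 genes, with 2 residual degrees of freedom. These came from replicates 1 and 2, since replicate 3 had 1 library per group and no spread of its own, and the contrast was chosen after replicate 3 was seen to stand apart. The 4 genes were 2.78% of the 144 tested here, near the 2.38% of all tested genes. *IRF1* differed by -0.54 on the log2 scale (adjusted p = 0.0399), with a higher level under ABS in both subsets. *TNFAIP3* differed by -1.27 (adjusted p = 4.23e-11), from 1.13 within replicates 1 and 2 to -0.14 within the replicate 3 pair. *SAMD9* differed by -0.45 (adjusted p = 0.00699), from 0.60 to 0.15. *N4BP1*, an RNA-binding restriction factor, differed by -0.42 (adjusted p = 0.0309), from 0.19 to -0.23. In all 4 genes control replicate 3 was the highest of the control libraries, beside 38.7% of all tested genes. That value enters the contrast by which the 4 were picked, so this is not a separate observation. The *IRF1* difference did not pass with library size alone as the scaling.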

How the results depend on the processing

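Higher calls among the 43 genes numbered 4 with RLE scaling, limma-voom and robust fitting, beside 0.378%, 0.378% and 0.429% of all tested genes. They numbered 2 with library size alone (*APOL6* and *DTX3L*), beside 0.225%. Without a filter they were 10 of 43, beside 1.17%, and with DESeq2 8 of 37, beside 1.22%. They were 8 with a replicate block, 11 with a term for replicate 3 and 12 with replicates 1 and 2 only, beside 1.77%, 2.24% and 7.83%. With 1 library left out they were 0 to 9, beside 0.0774% to 2.27%. Lower calls were 0 in all 15 alternatives. Such calls were rare over all tested genes as well, at 0.0654% in the comparison as reported. With library size alone 35 genes were called in either direction, 31 of them higher. A count of 0 therefore says little in such fits. With replicates 1 and 2 only, 5.33% of all tested genes were called lower. Same-numbered samples had deviations that correlated at 0.043, 0.033 and 0.167 for replicates 1, 2 and 3. The value of replicate 3 was the largest between any control and any ABS library. Control replicate 3 was at -0.067 and -0.116 with ABS replicates 1 and 2. ABS replicate 2 correlated best with control replicate 1, at 0.093. The numbers were not taken to pair the samples. The model of group alone holds no term for what the replicate 3 libraries share. With the replicate block 350 of all tested genes were called, beside 60 without it. The median log2 fold change lay between 0.19 and 0.24 with a library left out, with 18 to 22 genes whose ABS libraries were all above the controls and 0 to 2 whose were all below, beside 10.4% to 17.5% and 10% to 16.1% of all tested genes. The interaction count was 0 with library size alone. Calls in the wider lists, 1 in the comparison as reported, were 0 with library size alone and limma-voom, 6 without a filter, 3 with DESeq2, 2 with robust fitting, 7 with the replicate block, 8 with the term for replicate 3, 26 with replicates 1 and 2 only (19 higher and 7 lower, beside 7.83% and 5.33% of all tested genes) and 0 to 8 with 1 library left out. The cause was not tested. In 12 genes, none with a log2 fold change above 0.29 in size, the sign changed in some alternative. With 1 library left out their log2 fold changes ran from -0.37 to 0.41 for *DHX58*, -0.13 to 0.0479 for *EIF2AK2*, -0.61 to 0.36 for *GBP2*, -0.28 to 0.99 for *HERC5*, -1.09 to 0.52 for *IFI27*, -0.16 to 0.11 for *IFI35*, -0.0725 to 0.20 for *IFI44*, -0.13 to 0.88 for *IFI6*, -0.11 to 0.12 for *MX1*, -0.0559 to 0.18 for *OAS1*, -0.10 to 0.41 for *RSAD2* and -0.000625 to 0.27 for *STAT2*. With replicates 1 and 2 only they were -0.0188 for *MX1*, -0.26 for *RSAD2*, -0.0598 for *IFI44*, 0.0881 for *DHX58* and -1.05 for *IFI27*. *IFI27* was also at -0.31 with limma-voom, -0.18 with the replicate block and -0.17 with the term for replicate 3. Scaling moved the median of all genes by at most 0.01 on the log2 scale. Low counts limit the precision of the genes under 1 CPM.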
